A study of Mus musculus with 62 samples.

Results

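The genes of the mouse proteasome were followed in brown adipose tissue of mice carrying melanoma cells. Members were all rows of the deposited expression table whose symbol starts with Psm, continues with one letter of a to g and ends in a number. That rule found 48 of 47643 symbols. They comprise 14 constitutive core subunits, 3 immunoproteasome subunits, 17 subunits of the regulatory particle, 4 activator genes, 7 assembly chaperones, 1 inhibitor gene and 2 tissue-restricted core subunits. The tissue-restricted subunits are Psma8, known from testis, and Psmb11, known from thymus. Psma8 did not exceed 0.302 TPM, a transcript abundance normalised for length and library total, in any library and Psmb11 did not exceed 0.0287 TPM, so 46 members were tested.

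The proteasome is the protease that degrades proteins tagged with ubiquitin. Its core is a barrel of alpha and beta rings, with the proteolytic sites on the inner faces of some beta subunits. The regulatory particle caps the barrel, recognises ubiquitin, unfolds the substrate with a ring of ATPases and feeds it inward. In cells exposed to interferon gamma the immunoproteasome subunits Psmb8, Psmb9 and Psmb10 take the places of the constitutive catalytic subunits Psmb5, Psmb6 and Psmb7, and the mixed particles favour peptides that are loaded on major histocompatibility complex class I. In mouse brown fat, proteasome activity and the transcription factor Nfe2l1, which drives proteasome genes, are known to be needed for adaptation to cold.

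The study sampled tissue of female mice, 2 months old by the labels, at 2, 4, 6 and 8 weeks. The CAC groups carried cachectic melanoma cells, the NCAC groups non-cachectic ones, and the Con groups had been mock injected. Each of these 12 groups held 5 libraries, except CAC at 8 weeks with 7, which gives 62 in all. The sample labels give the strain as C57BL6/J, while the series text names NCI Ath/nude mice, a strain without a thymus. Replicates are described as biological, but no label ties a library to an animal or a batch, so p-values measure the spread between these libraries. Values are TPM, which account for transcript length and so allow levels to be compared between genes, but keep no sequencing depth, and the depth of each library is unknown.

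Short pieces of promoter sequence are shown for 4 members on which the results below turn: Psmb8 and its constitutive counterpart Psmb5, Psmc1, the ATPase with the highest change, and Psme1, an activator subunit. Capitals mark the match to a motif of a factor known to act on genes of this system. They come from the RefSeq table of promoter windows for GRCm38.p6, 5′ to 3′ on the strand of the gene, with bases inside annotated exons left out for Psmb5 and Psmc1. The Psmb8 piece, chr17:34198088-34198117 on the plus strand, holds TTCNNNGAA, a STAT site pattern, at bases -97 to -89 from the RefSeq start, which is inside an exon of Psmb8 in GENCODE M21. The Psmb5 piece, chr14:54618023-54618245 on the minus strand, holds TGACNNNGC, the core of the antioxidant response element, at bases -47 to -39. The Psmc1 piece, chr12:100109952-100110153 on the plus strand, holds a CCAAT box at bases -175 to -171. The Psme1 piece, chr14:55578493-55578522 on the plus strand, holds an interferon-stimulated response element pattern, GAAA, any 2 bases and GAAA, on the other strand at bases 9 to 18 after the start.
Psmb8: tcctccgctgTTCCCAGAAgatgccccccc
Psmb5: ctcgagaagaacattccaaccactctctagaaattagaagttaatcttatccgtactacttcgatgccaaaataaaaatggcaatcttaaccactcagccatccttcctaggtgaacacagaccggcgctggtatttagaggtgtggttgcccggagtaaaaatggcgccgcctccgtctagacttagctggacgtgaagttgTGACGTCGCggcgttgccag
Psmc1: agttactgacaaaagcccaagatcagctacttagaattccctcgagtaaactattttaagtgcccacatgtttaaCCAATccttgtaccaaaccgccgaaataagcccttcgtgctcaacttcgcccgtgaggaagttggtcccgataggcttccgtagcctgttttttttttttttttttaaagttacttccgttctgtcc
Psme1: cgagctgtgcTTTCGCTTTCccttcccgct

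Windows from 250 bases before to 50 bases after the start were found for 40 of the 48 members and for 27025 genes in all, and were searched on both strands, each pattern on its own, so that a base may count for more than one. TGACNNNGC was in 6 of 40 members (15%, against 13.99% of all genes), among them Psmb5, Psmb6 and Psmd12. The interferon-stimulated response element pattern was in 5 of 40 members (12.5%, against 3.99%), namely Psmb3, Psmd4, Psmd9, Psme1 and Psmg4. TTCNNNGAA was in 3 of 40 (7.5%, against 9.55%), namely Psmb8, Psmd2 and Psmg1. CCAAT was in 14 of 40 (35%, against 41.1%), and the GC box GGGCGG in 23 of 40 (57.5%, against 38.2%). These are matches of letters, not sites of binding. Of the immunoproteasome genes, Psmb8 (chr17:34197721-34201454, plus strand) and Psmb9 (chr17:34181987-34187764, minus strand) lie close to each other on chromosome 17, and Psmb10 is at chr8:105935735-105938444 on the minus strand (mm10, GENCODE M21).

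Core subunits were the most abundant members. Over the 62 libraries, Psma6, an alpha ring subunit, had the highest median level, 171 TPM, with a range of 123 to 348 TPM, ahead of Psma2 at 159 TPM and Psmb1 at 131 TPM. Among catalytic subunits the medians were 80.4 TPM for Psmb5, 77.6 TPM for Psmb6 and 62.7 TPM for Psmb7. Immunoproteasome subunits were much lower, at 16.6 TPM for Psmb10, 8.59 TPM for Psmb8 and 3.62 TPM for Psmb9, which ranked lowest of the 46 tested members. Psmb8 ranged from 3.82 to 18.9 TPM and Psmb9 from 1.73 to 6.47 TPM. Per length, each immunoproteasome transcript was therefore present at a fraction of the level of its constitutive counterpart in every group.

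All comparisons below are differences of log2(TPM + 1) from 1 limma model with a mean for each of the 12 groups, and a member is called higher or lower at a Benjamini-Hochberg adjusted p under 0.05 over all 12581 tested genes. The TPM scale itself moved between groups. The median difference of all tested genes was 0.09, -0.08, 0.18 and 0.28 between CAC and Con mice at 2, 4, 6 and 8 weeks, and 0.11, 0.06, 0.07 and 0.21 between CAC and NCAC mice. Transcripts of the mitochondrial genome took 44.3 to 55.6% of all TPM in CAC mice at 8 weeks, 56.0 to 61.99% in NCAC mice and 59.9 to 65.5% in Con mice. Libraries were therefore also rescaled by median-of-ratios size factors. A value given with no mention of rescaling is on TPM, and its call need not hold after rescaling.

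At 8 weeks most proteasome genes were higher in CAC than in Con mice on TPM. Of 46 tested members, 42 were called higher and none lower. All 14 constitutive core subunits, all 3 immunoproteasome subunits, all 17 regulatory subunits, all 4 activators and the inhibitor gene were among the 42, against 3 of 7 assembly chaperones. On TPM this has to be read against a background in which 52.1% of all tested genes were called higher and 1.97% lower. The median log2 difference was 0.54 over the members and 0.28 over all genes. After rescaling, 23 members were called higher and 1 lower, where 13.4% of all genes were called higher and 13.1% lower, and the median was 0.19 over the members and -0.01 over all genes. The 23 comprised 13 of 17 regulatory subunits, 6 of 14 core subunits, 1 of 3 immunoproteasome subunits, 1 of 4 activators, 1 of 7 chaperones and the inhibitor gene.

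**Figure D1:**
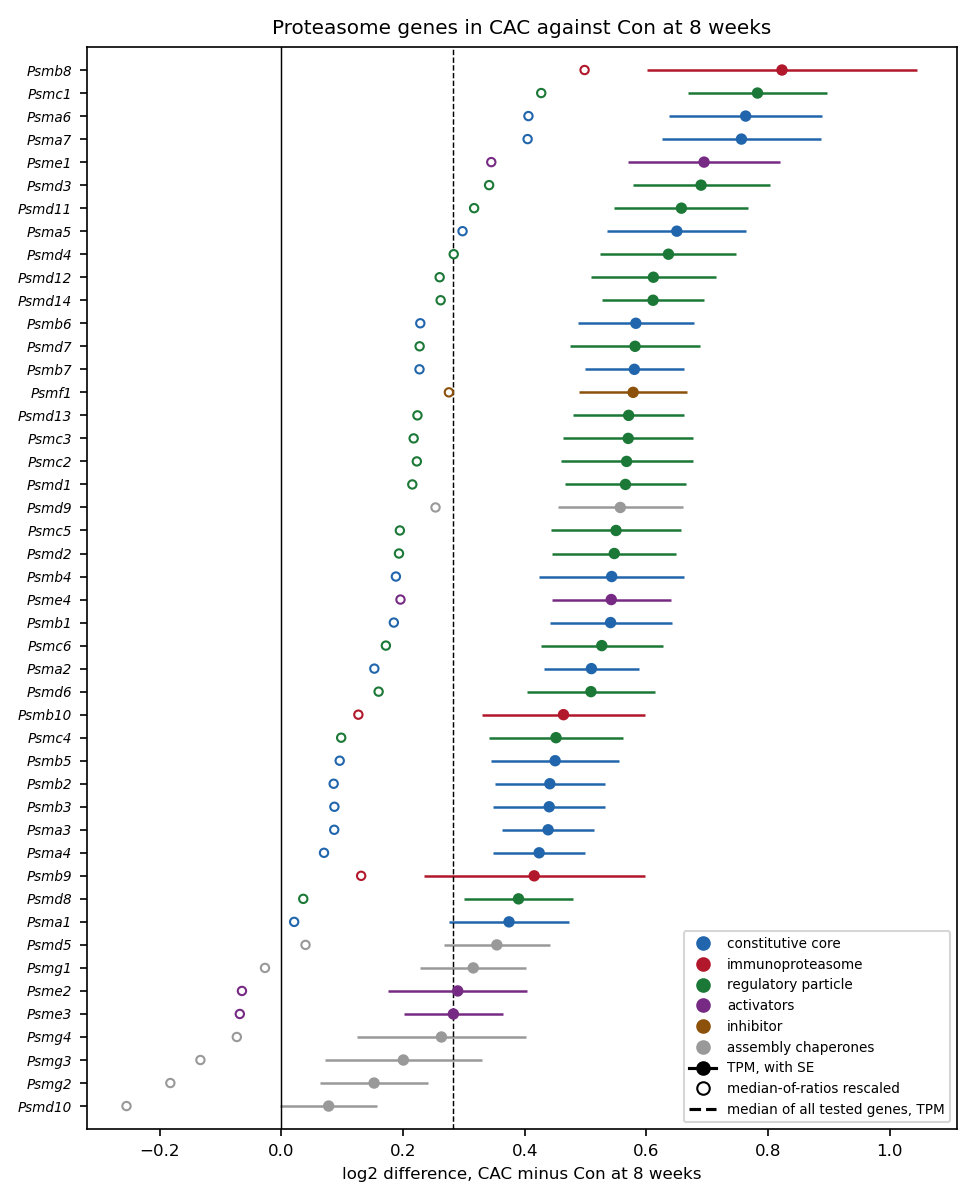
Log2 difference between CAC (n = 7) and Con (n = 5) mice at 8 weeks for each of the 46 tested members, sorted, on log2(TPM + 1). Filled points with bars are the difference and its standard error on TPM, open circles are the difference after median-of-ratios rescaling, and the dashed line is the median of all genes, 0.28. Psmb8 is at the top with 0.82 and Psmd10 at the bottom with 0.08.

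Psma6 had the largest difference of the core. It had 186 TPM in the lowest, 249 TPM in the median and 322 TPM in the highest CAC library at 8 weeks, against 164, 148, 258, 149 and 164 TPM in NCAC mice and 123, 158, 134, 168 and 145 TPM in Con mice. Every CAC library was above every Con library, while the third NCAC library lay within the CAC range. The log2 difference from Con mice was 0.76 (SE 0.13, adjusted p = 3.58e-06), and 0.41 after rescaling (adjusted p = 0.0048). Psma7, another alpha ring subunit, had 48.6, 66.8 and 78.2 TPM in the lowest, median and highest CAC library, against 50.1, 41.6, 56.4, 36.1 and 42.6 TPM in NCAC mice and 33.2, 41.8, 37.1, 38.0 and 35.7 TPM in Con mice. CAC and Con libraries again did not overlap, and the log2 difference was 0.76 (SE 0.13, adjusted p = 8.08e-06), or 0.40 after rescaling (adjusted p = 0.0021). Psma6 lies at chr12:55384222-55418454 on the plus strand and Psma7 at chr2:180036374-180042433 on the minus strand. The smallest difference in the core was that of Psma1, also of the alpha ring, with 0.37 (SE 0.10, adjusted p = 0.00148), which was 0.02 after rescaling (adjusted p = 0.877).

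Each of the constitutive catalytic subunits was higher in CAC than in Con mice at 8 weeks. Psmb5, which carries the chymotrypsin-like site, had 75.7, 85.7 and 109 TPM in the lowest, median and highest CAC library, against 70.7, 66.0, 81.4, 70.1 and 75.9 TPM in NCAC mice and 56.5, 66.7, 61.6, 64.1 and 63.7 TPM in Con mice. Psmb6, with the caspase-like site, had 80.4, 94.2 and 111 TPM in CAC mice, against 70.1, 67.0, 86.8, 63.8 and 77.9 TPM in NCAC mice and 54.7, 67.2, 62.2, 64.8 and 62.3 TPM in Con mice. Psmb7, with the trypsin-like site, had 64.3, 78.0 and 85.6 TPM in CAC mice, against 60.3, 55.9, 71.3, 56.7 and 61.5 TPM in NCAC mice and 45.3, 55.6, 49.4, 53.3 and 50.4 TPM in Con mice. For all 3 genes every CAC library lay above every Con library, and NCAC libraries overlapped with CAC libraries. The log2 differences from Con mice were 0.45 for Psmb5 (SE 0.10, adjusted p = 0.000408), 0.58 for Psmb6 (SE 0.10, adjusted p = 3.09e-06) and 0.58 for Psmb7 (SE 0.08, adjusted p = 1.82e-07). After rescaling, Psmb5 was at 0.10 (adjusted p = 0.366), so its call did not hold, while Psmb6 and Psmb7 were each at 0.23.

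Psmb8 had the largest difference of any member. Its levels at 8 weeks were 9.35, 11.96 and 18.9 TPM in the lowest, median and highest CAC library, against 4.54, 6.62, 8.30, 5.48 and 10.2 TPM in NCAC mice and 8.70, 5.88, 5.76, 6.71 and 6.89 TPM in Con mice. All CAC libraries were above all Con libraries, and 1 NCAC library reached into the CAC range. The log2 difference from Con mice was 0.82 (SE 0.22, adjusted p = 0.00193), and 0.50 after rescaling (adjusted p = 0.0418). With mitochondrial genes removed its call was lost, at 0.49 (adjusted p = 0.0709). Psmb10 had 14.6, 17.8 and 26.0 TPM in CAC mice, against 12.4, 14.6, 16.9, 14.9 and 18.0 TPM in NCAC mice and 13.2, 14.1, 12.3, 12.8 and 12.6 TPM in Con mice. Its CAC and Con libraries did not overlap, but its log2 difference of 0.46 (SE 0.13, adjusted p = 0.00358) came to 0.13 after rescaling (adjusted p = 0.368). Psmb9 had 3.58, 4.41 and 6.18 TPM in CAC mice, against 1.98, 3.54, 2.41, 2.14 and 3.81 TPM in NCAC mice and 4.02, 2.94, 2.43, 3.42 and 2.98 TPM in Con mice. Its groups overlapped, and its call, at 0.42 (SE 0.18, adjusted p = 0.0488), was lost in 9 of the 12 fits that left out a library of this comparison, with adjusted p up to 0.129, and after rescaling, at 0.13 (adjusted p = 0.585). The Psmb9 gene overlaps Tap1 on the other strand, and how reads of such pairs were counted is not given in the sources used here.

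**Figure D2:**
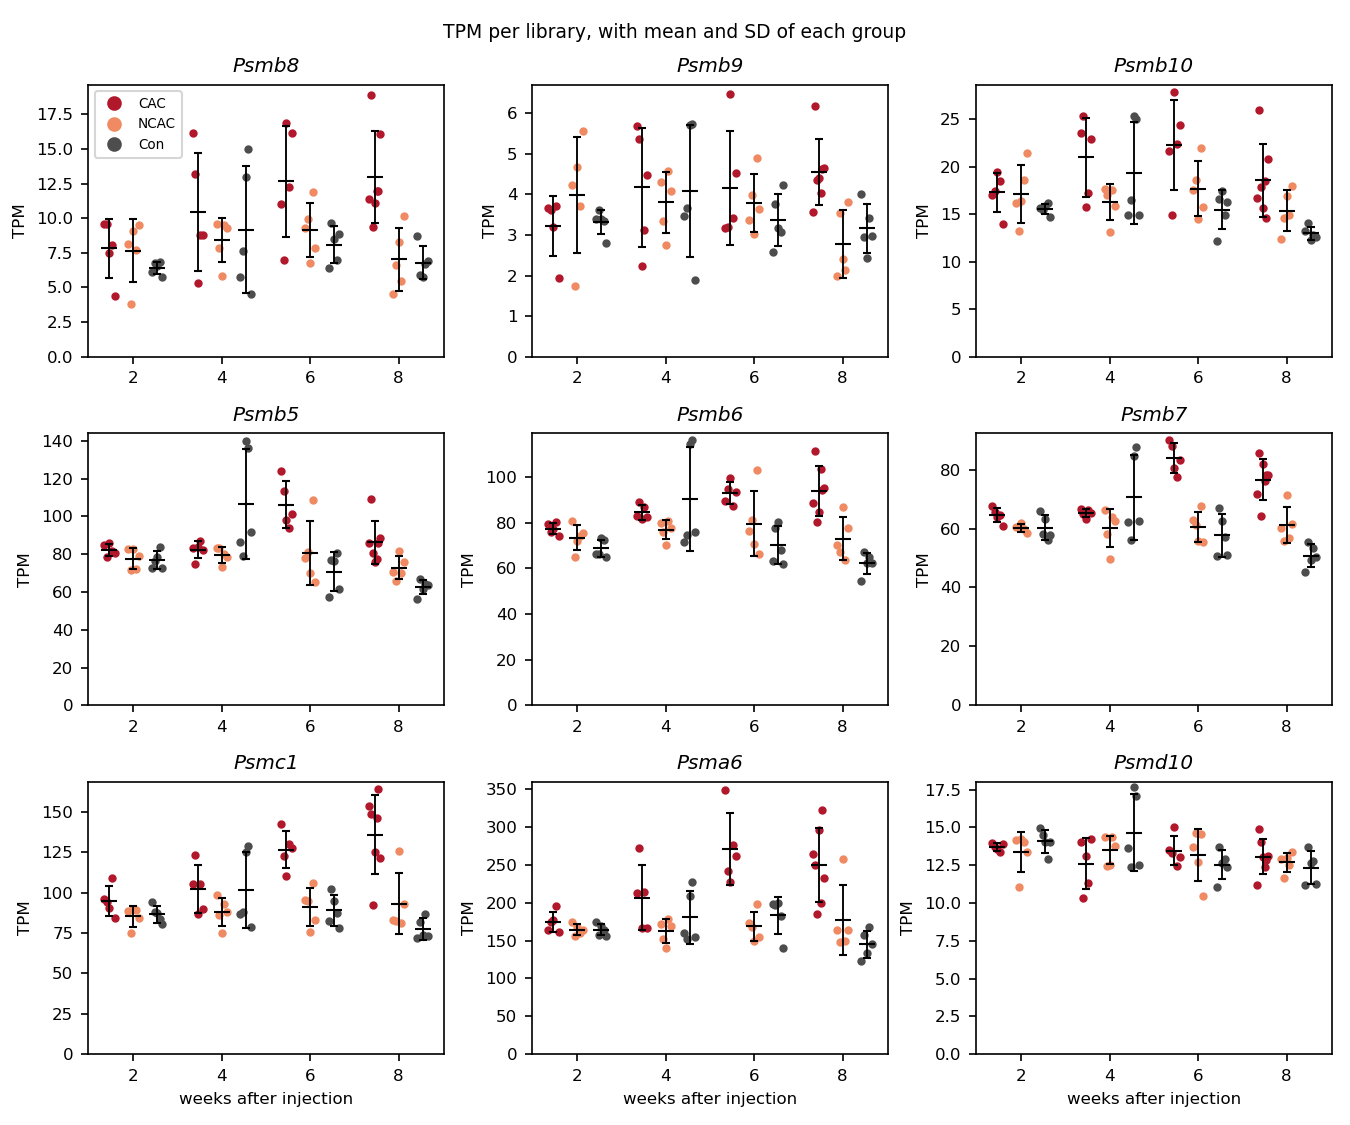
TPM of 9 members in every library by week, with group mean and SD, for CAC, NCAC and Con mice (n = 5 each, 7 for CAC at 8 weeks). Psmb8 reached 18.9 TPM and Psma6 322 TPM in CAC mice at 8 weeks, while Psmd10 stayed between 11.2 and 14.9 TPM there.

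In the regulatory particle Psmc1, an ATPase of its base, led. It had 92.1, 146 and 164 TPM in the lowest, median and highest CAC library at 8 weeks, against 83.1, 82.4, 125, 80.9 and 93.0 TPM in NCAC mice and 72.1, 81.7, 73.7, 87.0 and 72.8 TPM in Con mice. Every CAC library was above every Con library, and the log2 difference was 0.78 (SE 0.11, adjusted p = 3.81e-07), or 0.43 after rescaling. Psmd3, a scaffold subunit of the lid, averaged 43.4 ± 7.37 TPM in CAC mice (SD, n = 7), 31.9 ± 6.04 TPM in NCAC mice and 26.3 ± 2.43 TPM in Con mice (SD, n = 5 each), a log2 difference from Con mice of 0.69 (SE 0.11, adjusted p = 2.92e-06), or 0.34 after rescaling (adjusted p = 0.000931). Psmd14, the lid enzyme that removes ubiquitin from substrates, averaged 45.2 ± 4.34 TPM in CAC mice, 35.2 ± 5.73 TPM in NCAC mice and 29.2 ± 2.59 TPM in Con mice, and differed from Con mice by 0.61 (adjusted p = 8.14e-08), or 0.26 after rescaling (adjusted p = 0.00421). The smallest difference among regulatory subunits was 0.39, for Psmd8 of the lid, with 76.7 ± 9.19 TPM in CAC mice, 62.4 ± 3.31 TPM in NCAC mice and 58.0 ± 1.77 TPM in Con mice, and its call did not hold after rescaling, at 0.04 (adjusted p = 0.724). On TPM the 6 ATPases ranged from 0.45 to 0.78 and the 11 other subunits from 0.39 to 0.69.

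Differences among the 4 activators ranged from 0.28 to 0.69. Psme1 and Psme2 form the ring that interferon gamma induces and that opens the core without ATP. Psme1 had 39.9, 52.7 and 61.3 TPM in the lowest, median and highest CAC library at 8 weeks, against 25.3, 34.8, 37.0, 34.0 and 37.6 TPM in NCAC mice and 28.4, 31.2, 27.5, 36.3 and 29.0 TPM in Con mice. No NCAC or Con library reached the lowest CAC library. Its log2 difference from Con mice was 0.69 (SE 0.12, adjusted p = 1.33e-05), and 0.35 after rescaling (adjusted p = 0.00692). Its partner Psme2 had 74.8, 91.6 and 113 TPM in CAC mice, against 67.97, 91.2, 80.5, 80.6 and 85.0 TPM in NCAC mice and 71.4, 79.98, 66.9, 81.8 and 69.5 TPM in Con mice. These groups overlapped, and the difference of 0.29 (SE 0.11, adjusted p = 0.0287) turned to -0.06 after rescaling. Psme2 has a near copy in the table, Psme2b, at 1.73 TPM on average in CAC mice, 0.805 TPM in NCAC mice and 1.38 TPM in Con mice, so reads could be split between them. Psme4, an activator known for its role with acetylated histones, averaged 34.0 ± 4.59 TPM in CAC mice (SD, n = 7), 23.4 ± 3.51 TPM in NCAC mice and 22.9 ± 2.11 TPM in Con mice (SD, n = 5 each), a log2 difference from Con mice of 0.54 (adjusted p = 1.6e-05), which missed the threshold after rescaling at 0.20 (adjusted p = 0.0600). Psme3, the activator of the nucleus, had the smallest difference of the 4 activators. It averaged 48.1 ± 5.72 TPM in CAC mice, 42.99 ± 4.77 TPM in NCAC mice and 39.2 ± 3.31 TPM in Con mice, and its difference from Con mice of 0.28 (SE 0.08, adjusted p = 0.00344) was -0.07 after rescaling (adjusted p = 0.303). Psmf1, which inhibits the core in vitro, averaged 6.98 ± 1.00 TPM in CAC mice, 5.12 ± 0.731 TPM in NCAC mice and 4.32 ± 0.317 TPM in Con mice, and differed from Con mice by 0.58 (adjusted p = 9.03e-07), or 0.28 after rescaling (adjusted p = 0.000473).

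Assembly chaperones help rings form and leave before the particle is complete. Of their 7 genes 3 were called at 8 weeks, a share near the 52.1% of all genes, and no test compared the roles. The 4 members with the smallest differences were all chaperones and none was called: Psmg4 at 0.26 (SE 0.14, adjusted p = 0.105), Psmg3 at 0.20 (SE 0.13, adjusted p = 0.184), Psmg2 at 0.15 (SE 0.09, adjusted p = 0.139) and Psmd10 at 0.08 (SE 0.08, adjusted p = 0.416). Psmd10, which escorts an ATPase during assembly of the base, had 11.2, 13.02 and 14.9 TPM in the lowest, median and highest CAC library at 8 weeks, against 12.9, 11.7, 12.98, 12.5 and 13.4 TPM in NCAC mice and 11.2, 13.7, 12.6, 12.8 and 11.2 TPM in Con mice. Its groups overlapped fully, and after rescaling it was the 1 member called lower, at -0.25 (adjusted p = 0.00316). Psmg2, which pairs with Psmg1 on the alpha ring, had 12.1, 15.4 and 19.5 TPM in CAC mice, against 15.1, 15.2, 16.1, 14.5 and 17.4 TPM in NCAC mice and 12.3, 14.2, 14.03, 15.6 and 11.6 TPM in Con mice. Psmg3 had 11.5, 13.6 and 16.8 TPM in CAC mice, against 14.1, 11.3, 14.6, 13.3 and 17.0 TPM in NCAC mice and 10.3, 12.6, 11.99, 12.9 and 12.8 TPM in Con mice. Psmg4, its partner in the same complex, had 12.8, 16.1 and 22.8 TPM in CAC mice, against 14.04, 13.8, 19.0, 16.2 and 15.2 TPM in NCAC mice and 12.9, 14.5, 12.4, 14.2 and 13.5 TPM in Con mice. For each of these 3 genes the libraries of the 3 groups overlapped. The directions of all 4 depended on the scale: after rescaling, their differences from Con mice were -0.07 for Psmg4, -0.13 for Psmg3, -0.18 for Psmg2 and -0.25 for Psmd10. The chaperones that were called were Psmd9 at 0.56 (adjusted p = 2.08e-05), Psmd5 at 0.35 (adjusted p = 0.000783) and Psmg1 at 0.32 (adjusted p = 0.00225), of which Psmd9 was also called after rescaling, at 0.25. Psmd9 overlaps Hpd on the other strand, which averaged 6.95 TPM in CAC mice, 3.12 TPM in NCAC mice and 2.66 TPM in Con mice.

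At 6 weeks core and regulatory subunits were again all called. Of 46 members, 35 were called higher in CAC than in Con mice and none lower, where 20.7% of all genes were called higher and 0.978% lower. The median difference was 0.43 over the members and 0.18 over all genes. All 14 core and all 17 regulatory subunits were called, with 1 of 3 immunoproteasome subunits, 2 of 4 activators, the inhibitor gene and 0 of 7 chaperones (2 at unadjusted p under 0.05 in limma, where 35.1% of all genes were higher). After rescaling, 20 members were called higher, 10 of the core, 9 of the regulatory particle and 1 activator, against 5.18% of all genes called higher and 3.16% lower. Psma6 had 348, 242, 227, 276 and 261 TPM in CAC mice, against 173, 168, 150, 199 and 155 TPM in NCAC mice and 198, 196, 199, 183 and 141 TPM in Con mice. Psmb7 had 90.1, 87.9, 80.7, 77.4 and 83.2 TPM in CAC mice, against 62.8, 61.2, 55.8, 67.8 and 55.4 TPM in NCAC mice and 50.7, 67.1, 62.5, 57.2 and 50.9 TPM in Con mice. For both genes every CAC library lay above all NCAC and all Con libraries. After rescaling Psmb7 was at 0.32 (adjusted p = 0.000343), while Psma6 was at 0.33 and not called (adjusted p = 0.0753).

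On TPM, regulatory subunits at 6 weeks ranged from 0.32 for Psmc2 (adjusted p = 0.0462) to 0.71 for Psmd3 (adjusted p = 3.13e-05), which averaged 49.5 ± 7.12 TPM in CAC mice, 32.2 ± 4.04 TPM in NCAC mice and 29.7 ± 2.76 TPM in Con mice (SD, n = 5 each). Psmc1 had 142, 123, 110, 130 and 128 TPM in CAC mice, against 95.4, 95.1, 75.6, 106 and 83.03 TPM in NCAC mice and 82.5, 102, 94.5, 87.6 and 78.2 TPM in Con mice, with no overlap. After rescaling Psmd3 and Psmc1 were still called (adjusted p = 4.68e-05 and 0.021), and Psmc2 was not (adjusted p = 0.481). With mitochondrial genes removed Psmc1 lost its call, at 0.21 (adjusted p = 0.108). Core subunits ranged from 0.35 for Psma4 (adjusted p = 0.0022) to 0.62 for Psma5 (adjusted p = 0.000294). The immunoproteasome subunits were less even. Psmb10 was called at 0.48 (adjusted p = 0.0153), with 21.6, 15.0, 27.9, 22.4 and 24.4 TPM in CAC mice, against 17.5, 18.6, 14.5, 22.02 and 15.7 TPM in NCAC mice and 12.2, 16.6, 17.4, 14.9 and 16.3 TPM in Con mice. Its call was lost without CAC library 3 (adjusted p = 0.0561) or without Con library 1 (adjusted p = 0.0695), and after rescaling (0.27, adjusted p = 0.122). Psmb8 had 11.03, 6.99, 16.8, 12.2 and 16.2 TPM in CAC mice, against 9.29, 9.94, 6.76, 11.9 and 7.86 TPM in NCAC mice and 6.42, 9.66, 8.49, 7.00 and 8.85 TPM in Con mice. Its CAC library 2 fell among the Con libraries and its difference of 0.54 was not called (adjusted p = 0.0917), but without that library it was 0.72 (adjusted p = 0.0339). Psmb9 was at 0.21 (adjusted p = 0.43).

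Separation of single libraries was also counted by role. At 8 weeks, 29 of 46 members had every CAC library above every Con library, against 14.6% of all genes. They comprised 13 of 17 regulatory and 10 of 14 core subunits, 2 of 3 immunoproteasome subunits, 2 of 7 chaperones, 1 of 4 activators and the inhibitor gene. At 6 weeks the count was 31 of 46, against 15.2% of all genes.

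Comparison of CAC with NCAC mice asks whether the genes differed between hosts that both carried melanoma cells. It uses the same CAC libraries as the contrast with Con mice, so the contrasts are not independent. At 6 weeks 25 of 46 members were called higher and none lower, against 5.82% of all genes called higher and 1.95% lower, with a median of 0.35 over the members and 0.07 over all genes. They comprised 13 of 14 core subunits, 11 of 17 regulatory subunits and 1 of 4 activators, Psme4, with 0 of 3 immunoproteasome subunits and 0 of 7 chaperones (1 and 0 higher at unadjusted p under 0.05 in limma, against 15.4% of all genes). After rescaling the count was 27, against 5.60% of all genes called higher and 5.07% lower, with 11 of the core and 15 of the regulatory particle. The count on TPM rested on single libraries: it was 16 without CAC library 1, 15 without NCAC library 3 and 14 without NCAC library 5.

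At 8 weeks 32 of 46 members were called higher in CAC than in NCAC mice, but so were 37.3% of all genes, with 1.98% lower, and the medians were 0.32 and 0.21. After rescaling, 6 members were called higher and 2 lower, where 12.7% of all genes were called higher and 11.9% lower. That share is near the background. None of the core subunits was among the 6, which were Psmb8, Psmc1, Psmd11, Psmd9, Psme1 and Psme4, and the 2 called lower were Psmd10 at -0.21 and Psmg2 at -0.30. Psmb8 differed by 0.81 (SE 0.22, adjusted p = 0.00346) on TPM, Psmb9 by 0.57 (SE 0.18, adjusted p = 0.0107, but 0.0853 after rescaling), and Psmb10 by 0.25 (adjusted p = 0.138). Psme1 differed by 0.56 (adjusted p = 0.000435) and Psme2 by 0.16 (adjusted p = 0.262). Every CAC library was above every NCAC library for 3 members, Psmd8, Psme1 and Psmg1, against 6.82% of all genes, and for 17 members at 6 weeks, against 6.41%.

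Between NCAC and Con mice limma called no member at any week. The share of all genes called was 0 in both directions at 2, 6 and 8 weeks, and 0.00795% were called lower at 4 weeks. At 8 weeks, 45 of 46 members were higher in NCAC mice by sign, against 75.3% of all genes. The median was 0.20 over the members and 0.07 over all genes. At unadjusted p under 0.05, 19 members were higher, against 3.51% of all genes. On TPM these values lie between Con and CAC mice for many members (Psmd3 and Psmd14 above), but none passed the threshold. After rescaling the core median at 8 weeks was 0.14 for NCAC against Con mice and 0.02 for CAC against NCAC mice. For the regulatory particle these medians were 0.13 and 0.10, and again no member was called between NCAC and Con mice. The immunoproteasome median in this contrast was 0.01. At unadjusted p under 0.05, no member was higher or lower at 2 weeks, 10 were lower at 4 weeks, where 16.7% of all genes were, and 1 was higher at 6 weeks, where 8.33% of all genes were.

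**Figure D3:**
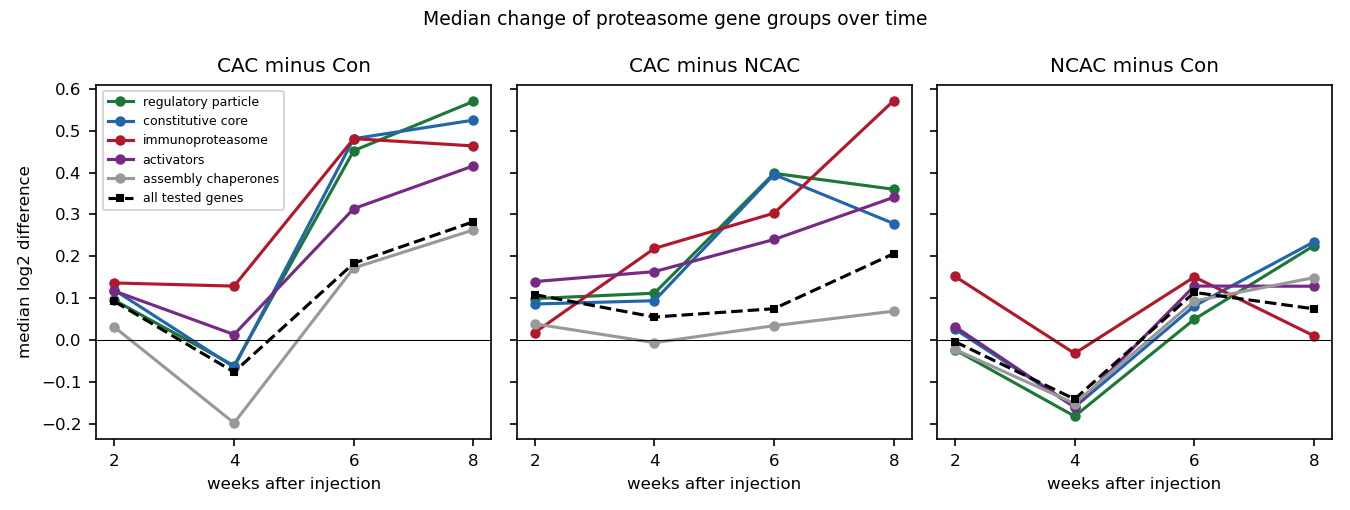
Median log2 difference by role and week in 3 panels (CAC minus Con, CAC minus NCAC, NCAC minus Con), on log2(TPM + 1), with the median of all tested genes beside them. For CAC against Con the median over all members was 0.10, -0.06, 0.43 and 0.54 at 2, 4, 6 and 8 weeks.

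The early weeks held no called member in any contrast. In CAC against Con mice at 2 weeks the median was 0.10 over the members and 0.09 over all genes, and 4.58% of all genes were called higher and 0.0477% lower. At unadjusted p under 0.05 in limma, 1 member and 15.98% of all genes were higher. At 4 weeks the median was -0.06, and 0.819% of all genes were called higher and 3.03% lower. At unadjusted p under 0.05, 5 of 46 members and 15.1% of all genes were lower. Con libraries 3 and 4 of that week stood apart, with 39.6 and 39.7% of TPM from the mitochondrial genome, against 57.1 to 58.7% in the other 3. The 48 genes made up 0.334 and 0.347% of all TPM in these 2 libraries. Without them the members' median was 0.14 and still no member was called. CAC against NCAC mice gave 0 called members at 2 and at 4 weeks, against 0.0397% and 0.588% of all genes called higher. At unadjusted p under 0.05, 2 and 3 of 46 members were higher, against 12.4% and 9.01% of all genes.

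The difference between CAC and Con mice at 8 weeks was then set against that at 2 weeks. That change was called higher for 26 of 46 members and lower for none, against 10.2% of all genes called higher and 1.42% lower, with a median of 0.42 over the members and 0.19 over all genes. The 26 comprised 14 of 17 regulatory subunits, 8 of 14 core subunits, 2 of 7 chaperones (Psmd5 and Psmd9), 1 of 4 activators (Psme1) and the inhibitor gene, and no immunoproteasome subunit. Psmd3 changed by 0.73 (SE 0.17, adjusted p = 0.00368). Psmb8 was at 0.61 (adjusted p = 0.195), Psmb9 at 0.46 (adjusted p = 0.224) and Psmb10 at 0.33 (adjusted p = 0.247). Markers of other cells also differed at 2 weeks: 10 of 10 skeletal muscle markers were called higher in CAC than in Con mice, with sums of 1099 to 12117 TPM in CAC mice, 978 to 3537 TPM in NCAC mice and 66.5 to 1983 TPM in Con mice, and so were 7 of 8 macrophage markers. The median change from 2 to 8 weeks was -2.47 over the muscle markers, 1 of 10 called lower, and 0.54 over the macrophage markers, 1 of 8 called higher. Their part in the 26 calls was not tested. After rescaling 5 members were called, against 3.50% of all genes, namely Psmc1, Psmd3, Psmd13, Psmd9 and Psmf1, and with mitochondrial genes removed 1 was called. The count on TPM moved with single libraries. It was 10, 16 and 15 without Con library 1, 3 or 5 of 8 weeks, and 12 and 15 without CAC library 2 or 6 of 8 weeks. It was 16, 12 and 13 without CAC library 1, 2 or 5 of 2 weeks, and 14, 17 and 13 without Con library 1, 2 or 3 of 2 weeks. Between 6 and 2 weeks 2 members were called, Psmc4 at 0.68 (adjusted p = 0.0244) and Psmd3 at 0.75 (adjusted p = 0.0132), against 0.986% of all genes called higher and 0.342% lower. Between 8 and 6 weeks none was called (1 higher at unadjusted p under 0.05 in limma, against 6.75% of all genes, and 0.00795% of all genes called). Con mice themselves gave 0 called members between 8 and 2 weeks, where 0.0318% of all genes were called lower. The members' median was -0.19, against -0.11 over all genes, and 17 of 46 were lower at unadjusted p under 0.05, against 18.6% of all genes.

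Summed over the 48 genes, the share of all TPM in CAC mice was 0.250, 0.259, 0.316 and 0.301% at 2, 4, 6 and 8 weeks. In NCAC mice it was 0.234, 0.236, 0.243 and 0.238%, and in Con mice 0.233, 0.274, 0.230 and 0.204%. The SDs at 8 weeks were 0.0319, 0.0291 and 0.0153 in CAC, NCAC and Con mice. As a share of TPM outside the mitochondrial genome, CAC mice had 0.662 ± 0.0247% at 6 weeks, NCAC mice 0.561 ± 0.00941% and Con mice 0.591 ± 0.0168% (SD, n = 5 each). At 8 weeks CAC mice had 0.611 ± 0.0416% (SD, n = 7), NCAC mice 0.589 ± 0.0409% and Con mice 0.548 ± 0.0118% (SD, n = 5 each). On this share CAC mice stood furthest from both other groups at 6 weeks, and at 8 weeks CAC and NCAC means differed by less than 1 SD.

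**Figure D4:**
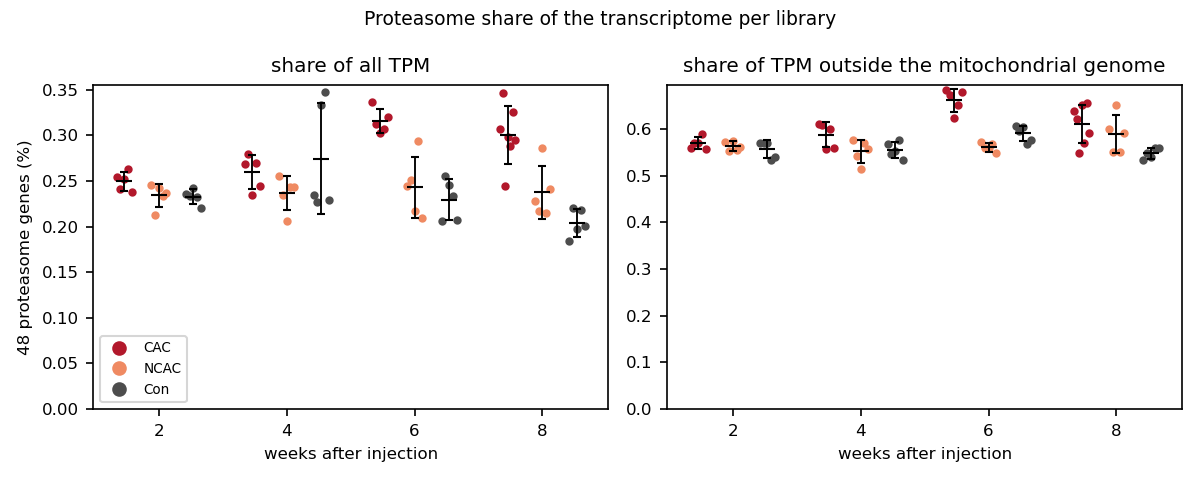
Share of all TPM (first panel) and of TPM outside the mitochondrial genome (second panel) taken by the 48 genes in every library, by week, for CAC, NCAC and Con mice. At 8 weeks the second share averaged 0.611% in CAC, 0.589% in NCAC and 0.548% in Con mice.

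The balance of catalytic subunit transcripts was examined through the TPM ratio of each immunoproteasome subunit to the subunit it replaces, which does not depend on how a library is scaled. Such a ratio of transcripts in whole tissue does not measure exchange of subunits in assembled particles. At 8 weeks Psmb8 was 11.6 to 18.2% of Psmb5 in CAC mice, with a median of 14.7%, against 6.43, 10.03, 10.2, 7.81 and 13.4% in NCAC mice and 15.4, 8.83, 9.35, 10.5 and 10.8% in Con mice. In each of the other groups 1 library reached into the CAC range. The log2 ratio was 0.67 higher in CAC than in NCAC mice (two-sided exact permutation p = 0.00758, adjusted p = 0.273 over 36 tests, 95% confidence interval from limma 0.22 to 1.12). It was 0.46 higher in CAC than in Con mice (exact permutation p = 0.0202, adjusted p = 0.364, interval 0.00 to 0.91). Neither passed the adjusted threshold. Psmb9 was 4.84 ± 0.649% of Psmb6 in CAC mice (SD, n = 7), 3.82 ± 1.18% in NCAC mice and 5.14 ± 1.34% in Con mice (SD, n = 5 each), a log2 difference from Con mice of -0.06 (exact permutation p = 0.697, adjusted p = 1, interval -0.48 to 0.36). Psmb10 was 24.3 ± 4.35% of Psmb7 in CAC mice, 25.2 ± 3.25% in NCAC mice and 25.7 ± 1.97% in Con mice, a log2 difference from Con mice of -0.10 (exact permutation p = 0.472, interval -0.36 to 0.17). At the earlier weeks the log2 ratio of Psmb8 to Psmb5 in CAC against Con mice was 0.14 at 2 weeks (exact permutation p = 0.556), 0.57 at 4 weeks (exact permutation p = 0.143, interval 0.08 to 1.06) and 0.00 at 6 weeks (exact permutation p = 1, interval -0.49 to 0.49). The interval at 4 weeks leaves out 0, although the permutation p there is above 0.05. Intervals use a spread pooled over all 12 groups, while the permutation test uses only the 2 groups compared. At 4 weeks the SD of this log2 ratio was 0.66 in CAC mice and 0.47 in Con mice. Of the 36 permutation tests, 3 ratios in 12 contrasts, 2 had an unadjusted p under 0.05 and none an adjusted one. The smallest possible permutation p is 0.00794 with 5 libraries against 5 and 0.00253 with 7 against 5. Even at these values a single ratio could not pass the adjustment over 36 tests. The permutation count therefore cannot decide whether a single ratio changed.

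**Figure D5:**
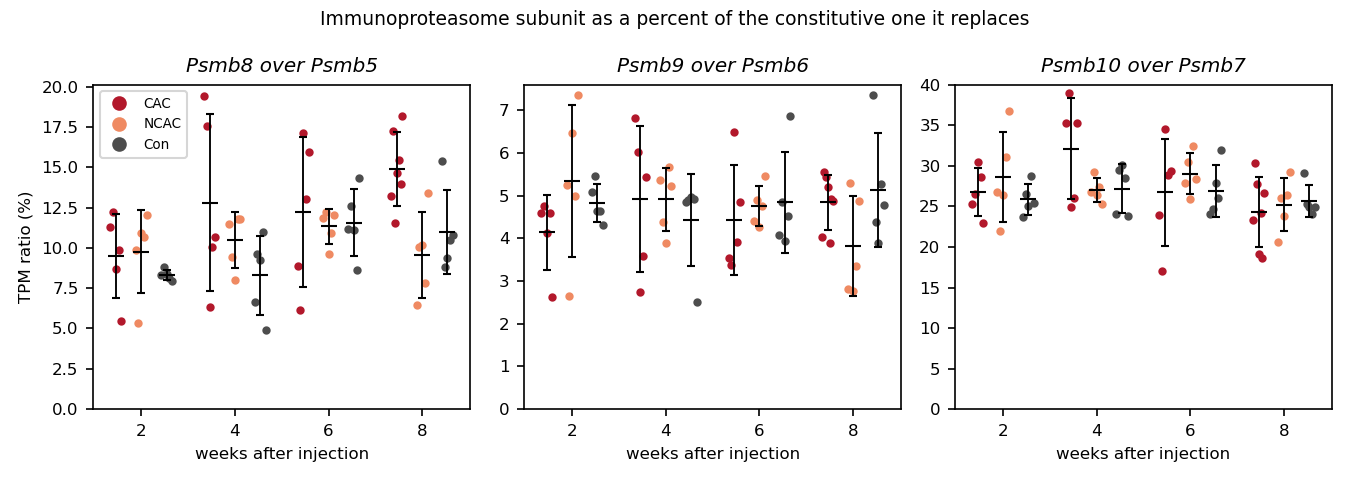
Psmb8 as a percent of Psmb5, Psmb9 of Psmb6 and Psmb10 of Psmb7 on TPM, in every library by week, with group mean and SD, for CAC, NCAC and Con mice. At 8 weeks Psmb8 averaged 14.9% of Psmb5 in CAC mice, 9.57% in NCAC mice and 10.97% in Con mice.

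Genes that work beside the proteasome were counted for the same contrasts. In CAC against Con mice at 8 weeks, all 10 tested proteasome-bound factors were called higher on TPM, with a median of 0.41, as were 7 of 10 at 6 weeks, against 52.1% and 20.7% of all genes. After rescaling 2 of 10 were called at 8 weeks, Adrm1 and AI314180, with a median of 0.07, and 1 of 10 at 6 weeks, against 13.4% and 5.18% of all genes. Adrm1, a ubiquitin receptor of the regulatory particle, differed by 0.67 (adjusted p = 6.85e-05), or 0.33 after rescaling (adjusted p = 0.00923). Uchl5, the deubiquitinase it binds, differed by 0.53, or 0.21 after rescaling (adjusted p = 0.165). The smallest called differences were 0.20 for the ubiquitin ligase Ube3c (adjusted p = 0.0458) and 0.18 for the phosphatase Ublcp1 (adjusted p = 0.0489), both below the median of all genes. Of 14 genes that supply ubiquitin or carry substrates, 10 were called higher on TPM at 8 weeks, against 52.1% of all genes. After rescaling 2 were called higher, Ubb and Vcp, and 3 lower, against 13.4% and 13.1% of all genes. Ubb, which encodes ubiquitin chains, differed by 1.09 (adjusted p = 0.00177) and the segregase Vcp by 0.59, while the lowest called was the ubiquitin-activating enzyme Uba1 at 0.24.

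Of 6 regulators of the proteasome or its genes, 3 were called higher on TPM in CAC than in Con mice at 8 weeks. That share is near the 52.1% of all genes called higher. After rescaling 1 was called higher and 2 lower, against 13.4% and 13.1% of all genes. Ddi2, the protease that cleaves Nfe2l1 into its active form, led with 13.3, 32.1 and 48.8 TPM in the lowest, median and highest CAC library, against 11.2, 12.6 and 15.8 TPM in NCAC mice and 10.9, 13.3 and 14.9 TPM in Con mice. Its CAC libraries overlapped with both other groups only at their lowest. The log2 difference from Con mice was 1.24 (SE 0.20, adjusted p = 2.04e-06) and passed after rescaling (adjusted p = 5.62e-05), and that from NCAC mice was 1.25 (adjusted p = 2.49e-06). Rsc1a1 lies within the Ddi2 locus on the same strand and averaged 17.9 ± 7.62 TPM in CAC mice (SD, n = 7), 5.37 ± 1.18 TPM in NCAC mice and 6.46 ± 1.97 TPM in Con mice (SD, n = 5 each), so the reads of the pair may not be separable. Nfe2l1 itself had 146, 190 and 253 TPM in CAC mice, against 155, 173 and 184 TPM in NCAC mice and 151, 176 and 192 TPM in Con mice. Its groups overlapped, its difference of 0.15 was not called (adjusted p = 0.162), and after rescaling it was -0.21 (adjusted p = 0.0258). The other called regulators were Nfe2l2 at 0.35 (adjusted p = 0.0412) and Ngly1, which removes sugars from Nfe2l1, at 0.29 (adjusted p = 0.00256). Neither call held after rescaling, where Nfe2l2 was at -0.0039 (adjusted p = 0.986) and Ngly1 at -0.05 (adjusted p = 0.629). Hsf1 at 0.26 (adjusted p = 0.0796) and Akirin2 at 0.09 (adjusted p = 0.486) were not called on TPM, and Akirin2 was called lower after rescaling, at -0.25 (adjusted p = 0.0296).

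Genes of interferon gamma signalling and peptide loading were counted because they act with the immunoproteasome. At 8 weeks 13 of 16 tested were called higher in CAC than in Con mice, and 13 of 16 in CAC than in NCAC mice, against 52.1% and 37.3% of all genes. After rescaling these counts were 8 and 12 of 16, against 13.4% and 12.7% of all genes. Ifng itself and Irf8 did not pass the filter on low values. The class I heavy chain gene H2-D1 had 134, 329 and 662 TPM in the lowest, median and highest CAC library, against 80.7, 145 and 195 TPM in NCAC mice and 98.2, 137 and 203 TPM in Con mice, a log2 difference from Con mice of 1.24 (adjusted p = 0.00128), or 0.89 after rescaling (adjusted p = 0.0209). Nlrc5, the transactivator of class I genes and of Psmb9, had 3.21, 6.33 and 8.94 TPM in CAC mice, against 1.76, 2.01 and 2.97 TPM in NCAC mice and 1.83, 1.91 and 3.28 TPM in Con mice, a difference of 1.18 (adjusted p = 4.67e-08), or 0.90 after rescaling (adjusted p = 2.86e-06). For H2-D1 the groups overlapped, and for Nlrc5 only the lowest CAC library fell within the Con range. Tap1, a subunit of the peptide transporter, differed by 0.43 (adjusted p = 0.0392), which was 0.16 and not called after rescaling (adjusted p = 0.485), and Irf1, an interferon-induced transcription factor, by 0.31 (adjusted p = 0.113).

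In whole tissue, fewer cells of a type and less RNA per cell cannot be told apart, and markers of other cells moved with these groups. Macrophage markers summed to 153 to 409 TPM in CAC mice at 8 weeks, against 57.7 to 107 TPM in NCAC mice and 73.4 to 100 TPM in Con mice, and 8 of 8 were called higher than in Con mice, with none at 0 throughout a group. After rescaling 7 of 8 were called, and at 6 weeks 6 of 8 on TPM and 5 of 8 after rescaling. Neutrophil markers summed to 13.5 to 53.2 TPM in CAC mice, 6.99 to 13.5 TPM in NCAC mice and 6.47 to 14.4 TPM in Con mice, with all 4 tested called higher on either scale. T cell markers were near 0, at 0.394 to 1.28 TPM in CAC mice, 0.269 to 1.11 TPM in NCAC mice and 0.463 to 2.42 TPM in Con mice. Markers of brown adipocytes were abundant in every group, with Ucp1 at 1640 to 9679 TPM over all libraries, and 2 of 10 were called higher and 2 lower, or 1 and 3 after rescaling. Skeletal muscle markers summed to 593 to 2833 TPM in CAC mice, 804 to 6490 TPM in NCAC mice and 731 to 6403 TPM in Con mice, and 0 of 10 were called (limma, at 8 weeks). Epithelial markers summed to 1.08 to 37.8 TPM in CAC mice, 19.6 to 117 TPM in NCAC mice and 14.5 to 104 TPM in Con mice, with 4 of 6 called lower on either scale. On TPM, general leukocyte markers were called higher in 3 of 4, endothelial markers higher in 2 and lower in 1 of 5, and B cell markers lower in 1 of 3 tested, while the 1 tested marker of natural killer cells was not called. After rescaling, leukocyte markers were called higher in 2 of 4, endothelial markers higher in 0 and lower in 1 of 5, and B cell markers lower in 2 of 3. Over all genes 52.1% were called higher and 1.97% lower on TPM, and 13.4% and 13.1% after rescaling. Of the melanoma markers only Mitf was tested, at 0.43 (adjusted p = 0.0321) on TPM and not called after rescaling, and their sum was 2.62 to 7.09 TPM in CAC mice, 2.08 to 4.62 TPM in NCAC mice and 1.84 to 3.28 TPM in Con mice. The part of these cell types in the proteasome results was not tested.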

How the data were processed

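Brown adipose tissue RNA was extracted with Trizol, libraries were made with a TruSeq stranded mRNA kit and sequenced on an Illumina NovaSeq, per the labels' protocols; that text also names LLC cells at 3 weeks, which no sample label here carries. The authors deposited 1 table of TPM for 47643 symbols and 62 libraries, built on mm10 per the submitters' processing notes; aligner, annotation and strand setting are not given in the sources used here. At 4 weeks 1 CAC title and 1 Con title share the number 56, and no 2 libraries held identical values.

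The 12581 genes that reached 1 TPM in 5 or more libraries were fitted in limma 3.58.1 (R 4.3.3) on log2(TPM + 1), with 12 group means, trended empirical Bayes and Benjamini-Hochberg adjustment within each of 16 contrasts. Ratios were tested by exact permutation in scipy 1.17.1 (Python 3.11.15, figures with matplotlib 3.10.9), and their intervals come from limma. Values are given by library for Psmb5 to Psmb10, Psme1, Psme2 and the 4 members with the highest and the 4 with the lowest change at 8 weeks with at least 5 TPM. Other members are given by role, and companion genes by the up to 3 highest and lowest called of a list. Members and lists were chosen with earlier results of these data known. The model code was tested on simulated data. Alternatives were another pseudocount, other filters, median-of-ratios rescaling, removal of mitochondrial genes, fits of only the groups compared, a replicate block, and each library or both unusual Con libraries left out.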

Additional observations from a re-analysis of the deposited data

Results flagged for a closer look

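In 8 of 108 groups of libraries checked for the reported genes and ratios, 1 library stood apart from its group by Dixon's criterion; chance alone flags about 1 group in 20. In CAC mice at 8 weeks, library 2 had 6.18 TPM of Psmb9, with the next at 4.65 TPM, and 109 TPM of Psmb5, with the next at 88.4 TPM. In CAC mice at 6 weeks, library 3 had 18.7 TPM of Psmg2, with the next at 15.0 TPM. NCAC library 3 at 8 weeks stood high for both Psmc1, at 125 TPM with the next at 93.0 TPM, and Psma6, at 258 TPM with the next at 164 TPM. NCAC library 4 at 6 weeks had 131 TPM of Psme2, with the next at 94.7 TPM. In Con mice, library 5 at 6 weeks had 141 TPM of Psma6, with the next at 183 TPM, and library 1 at 8 weeks had Psmb10 at 29.1% of Psmb7, with the next at 25.3%.

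The difference between CAC and Con mice was larger on TPM at 8 than at 2 weeks, by the test of that change in limma, for 6 of the genes given by library. The change in log2 difference was 0.68 for Psma6 (adjusted p = 0.0147), 0.66 for Psmc1 (adjusted p = 0.00956), 0.60 for Psma7 (adjusted p = 0.0356), 0.56 for Psme1 (adjusted p = 0.0395), 0.48 for Psmb7 (adjusted p = 0.00791) and 0.41 for Psmb6 (adjusted p = 0.0461). After median-of-ratios rescaling only Psmc1 of these 6 passed, at 0.42 (adjusted p = 0.0141), and the others were between 0.18 and 0.44 (adjusted p from 0.0644 to 0.161). With mitochondrial genes removed 1 of all 46 members passed.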

How the results depend on the processing

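With median-of-ratios rescaling and with the mitochondrial genes removed, the members called higher in CAC than in Con mice were 20 and 11 at 6 weeks, and 23 and 19 at 8 weeks (1 and 2 lower). In CAC against NCAC mice at 8 weeks they were 6 and 6 higher and 2 and 4 lower. The change from 2 to 8 weeks was called for 5 and 1 members. The change from 2 to 6 weeks was called for 4 with rescaling, against 1.26% of all genes called higher and 1.34% lower. With mitochondrial genes removed 1 member was lower in CAC than in Con mice at 4 weeks. Fits of only the groups compared called 20 in CAC against NCAC mice at 8 weeks, 15 for the change from 2 to 6 weeks, and 10 lower in Con mice at 8 against 2 weeks. The change from 2 to 8 weeks was called for 15 with no filter (23425 genes). Shares of all genes called are given only for the main fit on TPM and after rescaling. Counts of members under the other alternatives, here and elsewhere, therefore cannot be read against a background. Without Con libraries 3 and 4 the members' median at 4 weeks was 0.14 for CAC and 0.04 for NCAC against Con mice.

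Signs turned, given as rescaled and then with mitochondrial genes removed, in CAC against Con mice at 6 weeks for Psmg4 (-0.012, -0.084), Psmg3 (-0.11, -0.18), Psmg2 (-0.11, -0.18) and Psmd10 (-0.11, -0.19), and on removal alone for Psmb9 (-0.026) and Psme2 (-0.036). At 8 weeks they turned for Psme2 (-0.065, -0.11), Psmg4 (-0.073, -0.12), Psmg3 (-0.13, -0.18), Psmg2 (-0.18, -0.23) and Psmd10 (-0.25, -0.31). In CAC against NCAC mice at 8 weeks they turned for Psmb10 (-0.0031, -0.026), Psmb5 (-0.027, -0.050), Psme2 (-0.10, -0.13), Psmg4 (-0.18, -0.21), Psmg3 (-0.24, -0.27, and -0.014 with the block) and Psmd10 (-0.21, -0.24). By construction, median-of-ratios rescaling removes the shift of all genes, while removal of the mitochondrial genes is not built to do so. Why these signs turned was not tested.

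Leaving out 1 library at a time, members called higher in CAC than in Con mice ranged from 30 to 35 at 6 weeks and from 40 to 42 at 8 weeks, and lower at 4 weeks from 0 to 2. CAC against NCAC mice ranged from 14 to 31 at 6 weeks and from 28 to 39 at 8 weeks. NCAC against Con mice at 4 weeks gave 0 to 1 lower. The change from 2 to 8 weeks ranged from 10 to 33, with 11 of 22 libraries moving it by over 1.5 times, the change from 2 to 6 weeks from 0 to 4, and Con mice at 8 against 2 weeks from 0 to 1 lower. In CAC against NCAC mice at 8 weeks Psmg4 ranged from -0.0068 to 0.14, Psmg3 from -0.064 to 0.075 and Psmg2 from -0.11 to 0.0014, and the log2 ratio of Psmb9 to Psmb6 in CAC against Con mice from -0.15 to 0.076. Psme2 at 8 weeks lost its call in 5 of these fits (adjusted p up to 0.0808). Psmb9 at 8 weeks also lost its call with a pseudocount of 0.1 (adjusted p = 0.0535), no filter (adjusted p = 0.0808) and the block (adjusted p = 0.106). Over 45 gene results and 825 alternatives, fits without 1 library among them, 735 kept direction and side of the threshold, 45 lost the call, 5 gained it and 40 turned sign. The changes were not spread evenly. Of the 45 gene results, rescaling lost the call of 10, gained 1 and turned the sign of 15. Removal of the mitochondrial genes lost the call of 15, gained 1 and turned the sign of 17.

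Replicate numbers did not pair the libraries: of 60 pairs with a shared number, 16 had a correlation of deviations over 0.1, with a median of -0.03. With the replicate number as a block, 35 and 41 members were called in CAC against Con mice at 6 and 8 weeks, 24 and 29 in CAC against NCAC mice, and 12 for the change from 2 to 8 weeks. Permutation tests of the ratios with a pseudocount of 1 gave 0 of 36 past the threshold, but there too a single ratio could not pass the adjustment. In limma the ratios also gave 0 of 36, with a smallest adjusted p of 0.162.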
